A study of Saccharomyces cerevisiae with 2 samples.

Results

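The genes described here are 10 genes of *Saccharomyces cerevisiae* that act in sulfate reduction to sulfide, in transsulfuration, and in methionine and S-adenosylmethionine synthesis. The step from sulfide to homocysteine is not among theirs. The 10 genes are MET3, MET14, MET16, MET5, MET10, CYS4, CYS3, MET6, SAM1 and SAM2. They were chosen by name and not by a rule on their values, though with earlier results of these data known. They were found among the 6207 ORFs of the table through their ORF names. A value in both replicates existed for 8 of the 10, and for 50.2% of all ORFs. MET14 (YKL001C) and MET16 (YPR167C) were blank in both, as were 39.5% of all ORFs. Each ratio compares RNA of wsc1 mutant cells of BY4741 given 15 ng/ml caspofungin for 2 h at 24 °C with RNA of untreated cells. None of the 8 measured genes passed the test across all ORFs. They lay on both sides of 0, with 4 above and 4 below, and SAM2, counted below, was at -0.0011. Of all ORFs with both values, 0% passed with the columns as deposited, and 47.9% had a mean below 0. The ratios furthest from 0 were those of SAM1, at -0.54 ± 0.64, and CYS3, at 0.41 ± 0.44 (log2, mean ± SD, n = 2).

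Sulfate enters the yeast cell through permeases, is activated with ATP, and is reduced to sulfite and then to sulfide. Sulfide is joined to a homoserine ester to give homocysteine, the branch point of the pathway. From there methionine synthase makes methionine, which is turned into S-adenosylmethionine, the methyl donor of the cell, while transsulfuration enzymes interconvert homocysteine and cysteine. Transcription of many of these genes depends on the activator Met4 with its partners Cbf1, Met28, Met31 and Met32, and is low when methionine or cysteine is plentiful. The strain background BY4741 lacks MET17, whose enzyme fixes sulfide into homocysteine, so these cells depend on methionine or another organic sulfur source in the medium. The medium here was YEPD, a rich medium that contains methionine.

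Both RNAs of each comparison came from wsc1 mutant cells of BY4741. WSC1 encodes a surface sensor of the cell wall integrity pathway, and the labels do not name the allele. Both WSC1 and MET17 were blank in both columns, so the table gives no check of either. One RNA was from cells given 15 ng/ml caspofungin, a drug that blocks β-1,3-glucan synthesis, for 2 h at 24 °C, and the other from the untreated part of the same culture. There was 1 group of 2 dye-swapped comparisons. In replicate 1 the caspofungin RNA carried Cy3 and the untreated RNA Cy5, and replicate 2 had them the other way round. The labels mention 2 cultures and 4 arrays, but not which of them the 2 columns hold, so a p-value here reflects just the spread of these columns, and that spread may be technical.

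The deposited values are log2 dye ratios, with a value for 3705 ORFs in replicate 1 and 3166 in replicate 2, and 3117 in both. The columns correlated at a Pearson r of -0.29 across ORFs, which are not independent replicates, and the sign of replicate 1 was turned to put the caspofungin RNA on the same side in both. The sources used here do not say whether the ratio is Cy5 over Cy3. A positive value means more RNA with caspofungin if it is, and less if it is the reverse, so the text speaks of a positive and a negative side. The ratios hold no level for either RNA alone, signal over background is unknown, and each gene has at most 2 values. No sequence or genome position of the genes was used here.

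MET3 (YJR010W) encodes ATP sulfurylase, the first enzyme of sulfate assimilation. Its ratio was 0.41 in replicate 1 and -0.0082 in replicate 2. The replicates stood on opposite sides of 0, and the second was nearly at 0. That second value lay above the middle of its column, at percentile 55.3. The mean was 0.20 ± 0.30 (SD, n = 2; limma adjusted p = 0.556). The enzymes of the next 2 steps, APS kinase (MET14) and PAPS reductase (MET16), are those with no value. The middle of the sulfate branch therefore could not be followed in these data.

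Sulfite reductase has an α subunit encoded by MET10 (YFR030W) and a β subunit encoded by MET5 (YJR137C). MET10 had -0.36 in replicate 1 and -0.12 in replicate 2, both on the negative side. MET5 had 0.043 and 0.11, both on the positive side and both small. They stood at percentile 45.7 of replicate 1, below its middle, and at 71.2 of replicate 2. The means were -0.24 ± 0.17 for MET10 and 0.08 ± 0.05 for MET5 (SD, n = 2 each). Neither passed the test, with limma adjusted p = 0.424 for MET10 and 0.739 for MET5. The MET10 ratio lay below the MET5 ratio in both columns, by 0.40 in replicate 1 and 0.24 in replicate 2.

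The transsulfuration pair from homocysteine to cysteine was also split between the sides. CYS4 (YGR155W), cystathionine β-synthase, had -0.25 in replicate 1 and -0.19 in replicate 2. These values were close to each other, and the replicate gap of CYS4 was wider than that of only 16.5% of the 3117 ORFs. CYS3 (YAL012W), cystathionine γ-lyase, had 0.093 in replicate 1 and 0.72 in replicate 2. Nearly all of its mean thus came from replicate 2, where it stood at percentile 99.1 of the ORFs with a value, against percentile 53.3 in replicate 1. The means were -0.22 ± 0.04 for CYS4 (limma adjusted p = 0.410) and 0.41 ± 0.44 for CYS3 (limma adjusted p = 0.415), a size of 1.33-fold for CYS3. Without replicate 2 the CYS3 value was 0.093, and without replicate 1 it was 0.72. CYS3 lay above CYS4 in both columns, by 0.34 and 0.91.

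MET6 (YER091C) encodes the cobalamin-independent methionine synthase, which methylates homocysteine. Its ratio was 0.49 in replicate 1 and -0.025 in replicate 2. As for MET3, replicate 1 was on the positive side and replicate 2 near 0, and the mean was 0.23 ± 0.36 (SD, n = 2; limma adjusted p = 0.552). MET3 and MET6 stood at percentiles 86.9 and 91.3 of replicate 1, and at 55.3 and 52.6 of replicate 2.

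SAM1 (YLR180W) and SAM2 (YDR502C) encode the S-adenosylmethionine synthetases, a pair of closely similar paralogs. On an array a probe for one may also bind RNA of the other, and the sources used here do not say how far the probes separate them. SAM1 had -0.999 in replicate 1 and -0.087 in replicate 2. Replicate 1 placed it at percentile 1.88 of all ORFs and replicate 2 at percentile 44.0, and its replicate gap of 0.91 was wider than that of 95.2% of ORFs. The mean of -0.54 ± 0.64 (SD, n = 2), a size of 1.46-fold, did not pass the test (limma adjusted p = 0.416), and without replicate 1 the value was -0.087. SAM2 had -0.14 in replicate 1 and 0.14 in replicate 2, values of nearly equal size on opposite sides, with a mean of -0.0011 ± 0.20 (SD, n = 2; limma adjusted p = 0.997) that turned to 0.0024 when columns were centred over the ORFs with both values. SAM1 lay below SAM2 in both columns, by 0.85 in replicate 1 and by 0.23 in replicate 2.

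**Figure D1:**
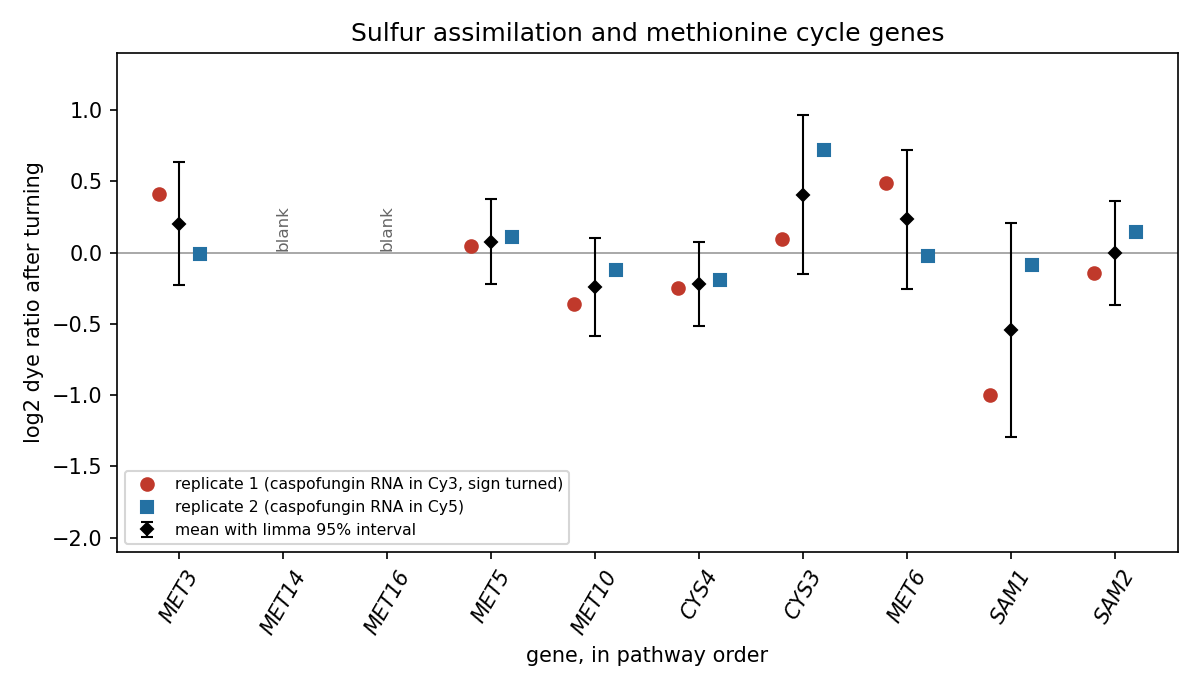
Log2 dye ratio of each of the 10 genes, in pathway order along the horizontal axis, with replicate 1 (sign turned) as circles, replicate 2 as squares, and the mean with its 95% limma interval as a diamond with bars. Every interval of the 8 measured genes includes 0, SAM1 in replicate 1 at -0.999 and CYS3 in replicate 2 at 0.72 stand furthest from it, and MET14 and MET16 are blank.

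The 95% limma intervals show what the 2 columns could and could not resolve. The narrowest were those of CYS4, from -0.52 to 0.07, and MET5, from -0.22 to 0.37. As a linear ratio the MET5 interval runs from 0.859 to 1.30. For SAM2 the interval ran from -0.36 to 0.36, so a change of either sign up to 1.29-fold lay inside it. The widest was that of SAM1, from -1.29 to 0.21, and that of CYS3 ran from -0.15 to 0.96. These data cannot tell a 2-fold change of SAM1 toward the negative side from none.

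The 3 enzyme pairs above share a complex, a branch or a reaction. The order of the partners was the same in both columns in 3 of 3. Across all pairs of the 3117 ORFs it was the same for 62.2%. A difference between 2 genes of one column is free of any shift common to that column. Its mean was -0.32 ± 0.12 for MET10 minus MET5, 0.63 ± 0.41 for CYS3 minus CYS4 and -0.54 ± 0.44 for SAM1 minus SAM2 (SD, n = 2 each), given as a description without a test.

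In order of their means, the genes ran from SAM1 (-0.54), MET10 (-0.24) and CYS4 (-0.22) through SAM2 (-0.0011) and MET5 (0.08) to MET3 (0.20), MET6 (0.23) and CYS3 (0.41). Each step between neighbours in this order was smaller than the greater of their SDs, except the step from CYS4 to SAM2. That step, of 0.22, was just above the SD of 0.20 of SAM2 and was not tested.

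The counts and the median of the set were near those of all ORFs. Of the 8, 4 had a mean above 0, against 52.1% of all 3117 ORFs. The replicates shared a sign for 5 of the 8, against 64.1% of all ORFs. Sides were counted from 0 without centring, and 55.4% of all ORFs were positive in replicate 1 but 43.8% in replicate 2. A value near 0, such as those of MET3 and MET6 in replicate 2, can change side with centring. The count of shared signs was not repeated after centring. MET5 and CYS3 were positive in both, as were 31.6% of all ORFs, and MET10, CYS4 and SAM1 were negative in both, as were 32.4%. The median of the 8 means was 0.04, against 0.01 over all ORFs, while their mean was -0.01. The median over the 8 was -0.051 in replicate 1 and -0.017 in replicate 2, against 0.035 and -0.042 over all ORFs. Both were negative while the median of the means was positive, so its sign was not settled. Their median by size, regardless of side, was 0.23, against 0.15 over all ORFs. With the columns as deposited, limma called 0% of the 3117 ORFs at an adjusted p of 0.05. It called 43, 110 and 115 ORFs under the 3 centred settings, with none of the 8 among them. At an unadjusted p of 0.05 the count was 0 of the 8, against 13.4% of all ORFs, and the lowest unadjusted p was 0.103, of CYS4. A mean beyond 1.5-fold with replicates of one sign was found for 0 of the 8, and for 4.04% of all ORFs.

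The turned replicates lay apart in several of these genes. The median gap between them was 0.35 over the 8, against 0.19 over all ORFs, and 4 of them (SAM1, CYS3, MET6 and MET3) had a gap wider than that of at least 81.6% of ORFs. The neighbour of MET3 one place before it in the order of ORF names had 1.42 in replicate 1, and that of MET6 had -1.18. In replicate 2 these neighbours had -0.73 and -0.29. CYS3 had a neighbour with 1.45 in replicate 1, 2 places away, and that neighbour was blank in replicate 2. Among the other 5 measured genes no neighbour within 3 places had a value beyond 2-fold in replicate 1. Blanks were scored as not beyond 2-fold, and they occurred among the neighbours of each of these 5. A neighbour of SAM1 stood at -0.91 in replicate 1. How many of all ORFs lay beyond 2-fold in replicate 1 was not counted, so the split of 3 genes and 5 carries no reading. The sources used here do not say whether the order of ORF names follows the order of spots, and the part of such neighbours in the values was not tested.

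**Figure D2:**
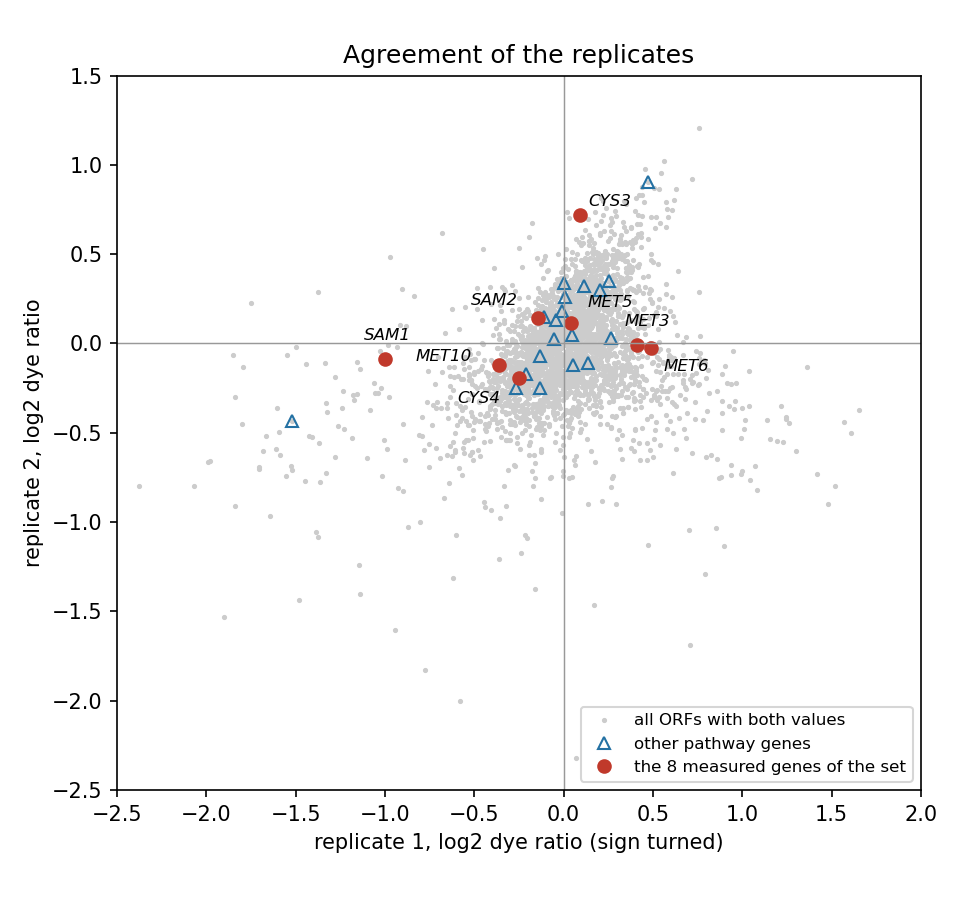
Replicate 2 against replicate 1 (sign turned), both as log2 dye ratios, for the 3117 ORFs with both values (grey), the 8 measured genes (filled circles) and 19 other genes of the pathway (triangles). MET3 and MET6 lie right of 0 along the horizontal axis, SAM1 far to the left along it, and CYS3 high above it, and the labelled points do not fall on one line.

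The other genes of the pathway were taken from a list of 35, and 19 of them had a value in both replicates. Blank in both were 12 of the 35, against 39.5% of all ORFs, and 4 had a value in 1 replicate only. The blank genes included the regulators MET28, CBF1 and MET31, the transporters MMP1 and YCT1, and MET1, needed for the sirohaem of sulfite reductase. They also included MET2, MET17, HOM2, MET7, STR2 and STR3, which were listed under homocysteine and methionine. Of the 19 measured genes 12 were above 0 and 7 below, the replicates shared a sign for 13, and the median was 0.04. None passed an adjusted p of 0.05, and 3 of the 19 were at an unadjusted p of 0.05, which 13.4% of all ORFs reached. These 3 were ADO1, HOM3 and MET4.

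Among the regulators MET4, the activator itself, had 0.26 in replicate 1 and 0.35 in replicate 2. Both lay on the positive side and close together, with a mean of 0.30 ± 0.07 (SD, n = 2; limma adjusted p = 0.372). MET32, the other regulator with both values, stood on opposite sides of 0 in the replicates, with a mean of 0.04 ± 0.13.

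The transporters were divided. SUL2, a sulfate permease, had -0.13 and -0.25 (mean -0.19 ± 0.08). MUP1, the high-affinity methionine permease, had 0.27 and 0.032 (mean 0.15 ± 0.17). Neither passed the test, with limma adjusted p = 0.459 for SUL2 and 0.584 for MUP1.

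Around homocysteine and methionine the ratios of greatest size were found, on both sides. HOM3, aspartate kinase, which opens the route to homoserine, had -1.52 in replicate 1 and -0.43 in replicate 2. Its mean was -0.98 ± 0.77 (SD, n = 2; limma adjusted p = 0.366), and its replicate gap of 1.09 was wider than that of 97.1% of ORFs. ADO1, adenosine kinase, which removes the adenosine released from S-adenosylhomocysteine, had 0.47 and 0.90, both on the positive side. Its mean was 0.69 ± 0.30 (SD, n = 2; limma adjusted p = 0.366). SAM4, a homocysteine methyltransferase that uses S-adenosylmethionine, had -0.26 and -0.25, a mean of -0.26 ± 0.01 (limma adjusted p = 0.388). When each column was centred on its median over the ORFs with both values, a choice made after the data were seen, HOM3 and ADO1 passed, with limma adjusted p = 0.0110 and 0.0248, as did 3.69% of all ORFs. They also passed when columns centred on the median over all ORFs of a column were scaled, as did 3.53% of all ORFs, in a fit whose prior had infinite degrees of freedom and so gave every ORF one common spread. With that centring and no scaling they missed the threshold, and 1.38% of all ORFs passed. None of the 8 measured genes of the set passed under any of these settings.

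Among the accessory genes of sulfate reduction, MET8, which completes the synthesis of sirohaem, had 0.0020 and 0.34 (mean 0.17 ± 0.24), and TRX2, a thioredoxin that donates electrons to PAPS reductase, had -0.13 and -0.068 (mean -0.10 ± 0.05). The limma adjusted p was 0.580 for MET8 and 0.665 for TRX2. In glutathione metabolism, GLR1, glutathione reductase, had -0.21 and -0.17 (mean -0.19 ± 0.03; limma adjusted p = 0.446), and GSH2, glutathione synthetase, had 0.046 and 0.045 (mean 0.05; limma adjusted p = 0.850).

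**Figure D3:**
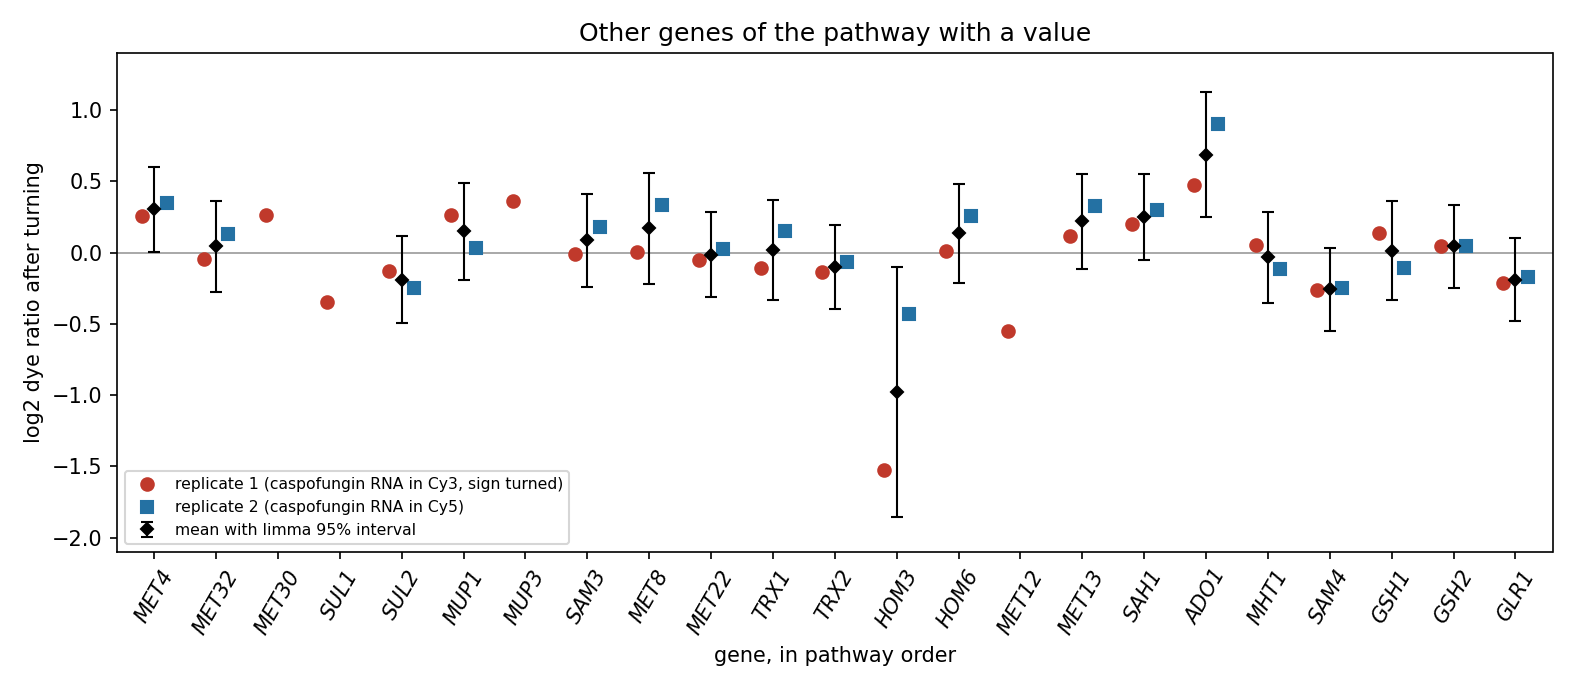
Log2 dye ratio of the other pathway genes with a value in at least 1 replicate, with replicate 1 (sign turned) as circles, replicate 2 as squares, and the mean with its 95% limma interval as a diamond with bars where both exist. HOM3 stands lowest at a mean of -0.98 and ADO1 highest at 0.69, and the other means lie between -0.26 and 0.30.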

How the data were processed

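RNA of caspofungin-treated and untreated wsc1 mutant cells was compared on 2-colour arrays, 2 deposited columns with exchanged dyes per the labels. The deposited values were taken as log2 ratios: 2 to the power of the value had at most 4 decimals for 100% of the values (tolerance 0.001 of the last), and for at most 0.378% with other bases or the inverse. The sources used here do not give the authors' background correction, normalization, spot averaging, centring or rule for blanks. The medians of the deposited columns, before turning, were -0.07 in replicate 1 and -0.04 in replicate 2. After turning, over the ORFs with both values, they were 0.035 and -0.042, on opposite sides of 0.

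The replicate 1 sign was turned by its dyes. The 3117 ORFs with both values went into a limma test of the ratio against 0 (limma 3.58.1, R 4.3.3). It used an intercept, eBayes, two-sided p-values, Benjamini-Hochberg over all 3117 ORFs and a threshold of 0.05. The step was also run on simulated data. Those had no shift common to a column, so they do not show how centring matters here. The 2 control entries were left out. Symbols came from RefSeq (R64). The members, lists and tests were chosen with earlier results of these data known. All members were named, and of each role of the other pathway genes up to 3 by size among those with the same sign, plus the blank ones. MET32 and the unadjusted calls were named after their values were seen. Alternatives varied turning, centring, scaling, prior, statistic, blanks and replicates.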

Additional observations from a re-analysis of the deposited data

How the results depend on the processing

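None of the 8 measured genes passed the adjusted p of 0.05 under any alternative with a test; over these the lowest adjusted p of a member was 0.161, of SAM1 with columns centred and scaled. The count of ORFs called, 0 with the columns as deposited, came to 43 when columns were centred on their medians, 110 when it was also scaled, and 115 when centred over the ORFs with both values (added after seeing the data). The estimated prior of limma moved too, with 2.64 degrees of freedom as deposited, 10.6 centred and 17.1 centred over the ORFs with both values. With centred and scaled columns it was infinite, so that every ORF was given one common spread, and the 0.161 of SAM1 comes from that fit. SAM1 had a limma adjusted p of 0.167 when columns were centred over the ORFs with both values, where the prior was finite. Under the opposite turning neither column was turned, so by the labels the caspofungin RNA stood on opposite sides in the 2 columns. By those labels the mean in this setting is not a ratio of treated and untreated RNA. Its values were -0.21 for MET3, 0.12 for MET10, 0.027 for CYS4, -0.26 for MET6, 0.46 for SAM1 and 0.14 for SAM2. All 6 had the sign reversed, and the median of the members was 0.077. SAM2 was 0.0024 when centred over the ORFs with both values, so that 5 of the 8 were then above 0. The count above 0 was 3 without replicate 1 and 4 without replicate 2. When a replicate was left out, with no test, MET3 ran from -0.0082 to 0.41, MET6 from -0.025 to 0.49 and SAM2 from -0.14 to 0.14. The members' median ran from -0.051 to -0.017, against 0.04 with both, and their mean was -0.011. The median of the other pathway genes ran from 0.0020 to 0.045. The cause of these moves was not tested. No paired analysis was possible because there is 1 group, of ratios that pair the treated with the untreated RNA. Spot averaging could not be changed with 1 value per ORF, and without intensities the limit set by weak signal is unknown.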
